A study of Mus musculus with 4 samples.

Results

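Secreted regulators of Wnt signalling were followed in nuclei of mouse aortic tissue as a set of 9 genes. The set held the secreted Frizzled-related proteins Frzb (also called Sfrp3), Sfrp1, Sfrp2 and Sfrp4, the Dickkopf proteins Dkk2 and Dkk3, the Wnt inhibitory factor Wif1, and the R-spondins Rspo1 and Rspo3. Members were chosen by gene symbol, and all 9 were found among the 32285 genes of the deposited matrices. Earlier results of these data were known when the set was chosen, so its levels are given as a description.

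Wnt proteins are secreted ligands that bind Frizzled receptors together with the co-receptors Lrp5 and Lrp6. In the canonical branch this stops the breakdown of beta-catenin, which then acts with TCF and LEF factors on target genes. Secreted Frizzled-related proteins and Wif1 bind Wnt ligands outside the cell, Dickkopf proteins of the Dkk1 and Dkk2 type block Lrp5 and Lrp6, and R-spondins act through Lgr receptors to keep the ubiquitin ligases Znrf3 and Rnf43 from removing Frizzled receptors. In the vessel wall the pathway is known from endothelial specification, smooth-muscle growth and calcification.

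All mice carried a CA1 knock-in on an ApoE-deficient (ApoE-/-) background. CA1 is carbonic anhydrase 1, which turns carbon dioxide into bicarbonate and back, and mice without ApoE develop atherosclerotic lesions readily. The design had 4 groups of 1 library each: mice without treatment (untreated), mice on high-fat food (high-fat), mice on high-fat food that received methoxazolamide (MTZ, an inhibitor of CA1 per the series title) once atherosclerosis was present (MTZ-after), and mice on high-fat food that received it simultaneously with that food (MTZ-simultaneous). No group lacked the knock-in or ApoE deficiency, and the ages, the number of animals per library and any pooling were not given in the sources used here. With 1 library per group no difference has a replicate check, so no p-value is given and every interval covers counting error only.

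Values for the 4 libraries follow the order untreated, high-fat, MTZ-after, then MTZ-simultaneous. They had 69201159, 50358151, 31517272 and 37962370 unique molecular identifiers (UMIs, each counted as 1 RNA molecule). The median nucleus held 2026, 969, 827 and 1420 UMIs, and 99718 nuclei were kept in all. Pairs of libraries shared 119 to 376 cell barcodes, at most 1.34% of the smaller library. Car1, the mouse gene of the targeted enzyme, stood at 127.6, 86.1, 63.4 and 151.1 counts per 1000000 UMIs (CPM). Clustering that left out all Wnt genes gave 39 clusters, of which marker genes named 18 classes; 14 of these had at least 50 nuclei in every library. The tissue makeup of the libraries differed. Brown-adipocyte-like nuclei made up 33.0% of untreated and 2.36% of high-fat, macrophage-like nuclei made up 35.8% of high-fat and 5.32% of untreated, and MTZ-after held 4358 adrenal-cortex-like and 953 hepatocyte-like nuclei, so the libraries were not made of aortic wall alone. Of the listed markers, 10 of 10 were at least 2-fold enriched in endothelial-like, 7 of 10 in fibroblast-like, 9 of 12 in modulated-mesenchymal-like and 8 of 8 in mesothelial-like nuclei.

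The members differed in where they were highest. Classes were ordered by mean CPM over libraries, among the 14 present in every library. By this order 4 members (Frzb, Sfrp2, Dkk3 and Wif1) were highest in modulated-mesenchymal-like nuclei, a class marked by Tnfrsf11b, Timp1, Lum and others. Sfrp1 and Dkk2 were highest in endothelial-like nuclei, Sfrp4 in fibroblast-like, Rspo1 in mesothelial-like and Rspo3 in lymphatic-endothelial-like nuclei. Single libraries could differ from the mean. In high-fat Frzb was highest in endothelial-like (123.8 CPM), Sfrp2 in fibroblast-like (30.9 CPM) and Wif1, from 1 count, in lymphatic-endothelial-like nuclei. In MTZ-after Sfrp4 was highest in modulated-mesenchymal-like nuclei (146.5 CPM, against 118.2 CPM in fibroblast-like nuclei). Since the Wnt genes had no part in the clustering, these positions were not set by the members themselves.

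**Figure D1:**
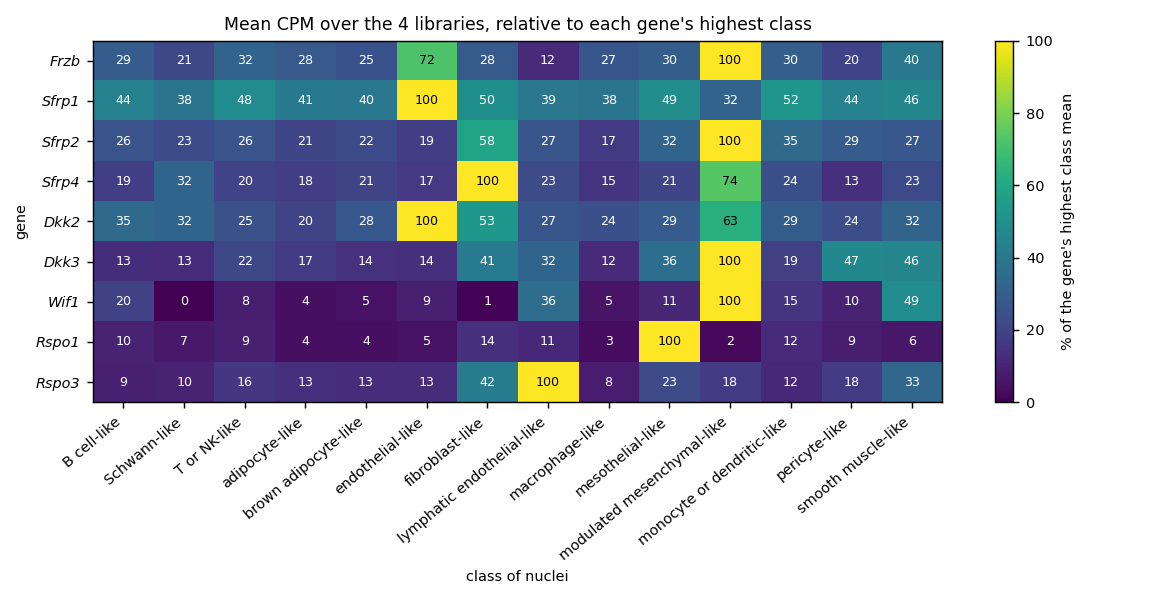
Each row is a member and each column a class of nuclei, and the number in a cell is the mean CPM over the 4 libraries as a percentage of that gene's highest class. Rspo1 stands at 13.6% or less of its mesothelial-like level in every other class, whereas Sfrp1 stays between 31.7% and 52.0% of its endothelial-like level in all of them.

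Free RNA in a droplet experiment can put a gene's UMIs into nuclei that do not express it. Levels of most members are therefore set beside those in T or NK-like and B-cell-like nuclei of the same library, called lymphocytes here. The calls themselves were made on CPM without that comparison. The number of lymphocyte nuclei was 965 in untreated, 1444 with high-fat, 781 with MTZ-after and 1166 with MTZ-simultaneous. For Frzb and Sfrp1 this lymphocyte level was not low and was itself different between libraries, which bears on every comparison of those members. Lymphocytes of high-fat were also above untreated for Sfrp2 (2.69-fold, 1.43 to 5.30) and Sfrp4 (1.65-fold, 1.065 to 2.58). Those of MTZ-after were above high-fat for Rspo1 (8.79-fold, 2.37 to 48.5) and Rspo3 (6.04-fold, 1.79 to 26.0), from few counts. For Dkk2 the lymphocyte intervals of all comparisons include 1.

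Promoter sequences are shown for 1 member from each of 3 expression sites: Sfrp2 (modulated-mesenchymal-like), Dkk2 (endothelial-like) and Rspo1 (mesothelial-like). Sequences were available for 5 of the 9 members, and the windows of Frzb and Wif1 overlap annotated exons and are not shown. Each sequence is the 250 bases before the RefSeq start on GRCm38.p6, written 5′ to 3′ on the gene's strand. Positions are chr3:83766071-83766320 on the plus strand for Sfrp2, chr3:132085042-132085291 on the plus strand for Dkk2 and chr4:124986180-124986429 on the plus strand for Rspo1. Capitals mark matches to TATAAA (the TATA box core), CTTTGA (the core bound by TCF and LEF factors) or GGGCGG (a GC box), searched on both strands; the 3 motifs do not overlap in these windows.
Sfrp2: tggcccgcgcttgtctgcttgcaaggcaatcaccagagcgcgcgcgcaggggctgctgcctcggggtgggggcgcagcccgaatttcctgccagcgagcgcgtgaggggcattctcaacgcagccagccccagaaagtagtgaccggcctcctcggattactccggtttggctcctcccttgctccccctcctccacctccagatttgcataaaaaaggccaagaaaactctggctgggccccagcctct
Dkk2: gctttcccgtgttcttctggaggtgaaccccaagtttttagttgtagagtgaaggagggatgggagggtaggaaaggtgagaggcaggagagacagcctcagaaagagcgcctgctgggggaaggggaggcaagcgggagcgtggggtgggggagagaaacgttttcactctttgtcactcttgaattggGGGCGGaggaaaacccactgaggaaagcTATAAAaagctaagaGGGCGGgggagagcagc
Rspo1: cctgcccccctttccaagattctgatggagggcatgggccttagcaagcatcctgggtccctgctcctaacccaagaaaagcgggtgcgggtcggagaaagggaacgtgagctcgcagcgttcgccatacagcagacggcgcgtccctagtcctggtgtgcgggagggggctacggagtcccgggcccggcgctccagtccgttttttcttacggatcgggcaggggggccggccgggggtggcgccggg
The Dkk2 window held TATAAA from 32 to 27 bases before the start and GGGCGG at 60 to 55 and at 17 to 12 bases before it. The Sfrp2 and Rspo1 windows held none of the 3 motifs as spelled. Among 32851 promoter windows of the same length, 12.4% held TATAAA, 13.8% held CTTTGA and 32.7% held GGGCGG on either strand. G and C made up 63.6% of the Sfrp2 window, 55.6% of the Dkk2 window and 66.8% of the Rspo1 window.

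Frzb, a Frizzled-related protein first known from cartilage, lies on chromosome 2 from 80411970 to 80447625 on the minus strand (GENCODE vM21 on GRCm38, as for all positions below; all 9 members are protein-coding). In modulated-mesenchymal-like nuclei its level was 95.2 CPM in untreated, 112.0 with high-fat, 75.7 with MTZ-after and 121.4 with MTZ-simultaneous. The high-fat level there was 1.18 times untreated (95% interval 0.926 to 1.51), so no difference could be seen at this depth. In endothelial-like nuclei the levels were 52.9, 123.8, 41.8 and 73.3 CPM in the same order. High-fat was thus 2.34-fold above untreated (2.09 to 2.62) and MTZ-after was at 0.337 of high-fat (0.289 to 0.392).

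Lymphocytes differed between libraries in the same directions. They held Frzb at 13.6, 53.6, 20.5 and 32.0 CPM, a high-fat to untreated ratio of 3.93 (2.53 to 6.28) and an MTZ-after to high-fat ratio of 0.382 (0.210 to 0.654). Fibroblast-like nuclei stood at 0.871 to 1.04 of the lymphocyte level of their library, and macrophage-like nuclei at 0.639 to 1.07 of it. The high-fat excess of Frzb in fibroblast-like (3.80-fold) and macrophage-like nuclei (4.42-fold) therefore sat at the level of lymphocytes of the same library. Relative to lymphocytes, endothelial-like Frzb was 3.88-fold in untreated and 2.31-fold in high-fat, and modulated-mesenchymal-like Frzb was 6.98-fold in untreated and 2.09-fold in high-fat.

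Sfrp1 binds Wnt ligands and lies on chromosome 8 from 23411502 to 23449632 on the plus strand. It had 28519 counts in kept nuclei, the most of the members. In endothelial-like nuclei its level was 287.0 CPM in untreated, 413.5 with high-fat, 214.3 with MTZ-after and 330.9 with MTZ-simultaneous. Lymphocytes held 100.5, 221.2, 113.8 and 132.4 CPM. The endothelial-like level was thus 1.87 to 2.86 times the lymphocyte level in each library, lowest in high-fat and MTZ-after. High-fat was 1.44-fold above untreated in endothelial-like nuclei (1.37 to 1.52) against 2.20-fold in lymphocytes (1.85 to 2.63). After every nucleus was thinned to 500 UMIs, 9.79, 17.4, 9.15 and 12.8% of endothelial-like nuclei had an Sfrp1 UMI, and 6.36, 10.1, 6.14 and 9.55% of T or NK-like nuclei did. Before thinning those shares were 30.2, 36.2, 16.4 and 34.4% and 16.8, 18.4, 10.5 and 20.4%.

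In modulated-mesenchymal-like nuclei Sfrp1 was below the lymphocyte level in all 4 libraries. Its CPM there was 74.4 in untreated, 180.4 with high-fat, 80.6 with MTZ-after and 59.3 with MTZ-simultaneous. The high-fat library was the highest, as it was for lymphocytes.

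Sfrp2, which is expressed by fibroblasts in many organs, lies on chromosome 3 from 83766321 to 83774316 on the plus strand. Modulated-mesenchymal-like nuclei held it at 53.6 CPM in untreated, 28.0 with high-fat, 73.2 with MTZ-after and 126.9 with MTZ-simultaneous. High-fat was the lowest of the 4, and MTZ-simultaneous was 4.53-fold above it (3.33 to 6.19). Lymphocytes held 7.58 CPM in untreated, from 15 counts, against 20.4 with high-fat and 16.99 with MTZ-simultaneous. Relative to them, the modulated-mesenchymal-like level was 7.08-fold in untreated (3.90 to 13.6) and 7.47-fold in MTZ-simultaneous (4.99 to 11.4). These intervals overlap, so untreated and MTZ-simultaneous were not separated on this scale. The level was 1.37-fold in high-fat (0.914 to 2.105), whereas MTZ-after stood at 2.73-fold (1.51 to 5.01). The untreated level rested on 49 counts from 195 nuclei and the MTZ-after level on 30 counts from 283 nuclei. A difference in makeup stands beside these values: 55.4% of the untreated class, but 89.4 to 99.8% of it in the other libraries, belonged to cluster 30, and the rest to cluster 33. Within cluster 30 alone the levels were 75.0, 28.1, 87.6 and 126.3 CPM. In fibroblast-like nuclei Sfrp2 was at 37.6, 30.9, 55.4 and 40.8 CPM, with no ratio past 2-fold. Relative to lymphocytes the high-fat to untreated ratio there was 0.306 (0.153 to 0.610), while the intervals of both MTZ libraries over high-fat include 1.

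Sfrp4, a phosphate-regulating Frizzled-related protein made by connective tissue, lies on chromosome 13 from 19623104 to 19632994 on the plus strand. In fibroblast-like nuclei it stood at 134.4 CPM in untreated, 110.8 with high-fat, 118.2 with MTZ-after and 228.9 with MTZ-simultaneous. MTZ-simultaneous was 2.07-fold above high-fat (1.73 to 2.48), and the other 3 libraries lay between 110.8 and 134.4 CPM. The 2 fibroblast-like clusters gave the same direction, with 187.8 CPM in MTZ-simultaneous against 95.8 in high-fat in cluster 21 and 252.5 against 126.4 in cluster 24. Lymphocytes held 18.7, 30.8, 33.2 and 35.5 CPM. Relative to them the fibroblast-like high-fat to untreated ratio was 0.499 (0.317 to 0.787). The MTZ-simultaneous to high-fat ratio on that scale was 1.80 (1.21 to 2.67). In modulated-mesenchymal-like nuclei Sfrp4 was 47.1 CPM in untreated and 102.0, 146.5 and 140.7 CPM in the 3 high-fat-fed libraries, a high-fat to untreated ratio of 2.17 (1.57 to 3.06). In cluster 30 alone that ratio was 1.55. Measured against lymphocytes, the ratio for the class was 1.31 (0.774 to 2.225), an interval that includes 1.

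Dkk2 binds Lrp5 and Lrp6 and lies on chromosome 3 from 132085292 to 132180304 on the plus strand. In endothelial-like nuclei it stood at 264.2 CPM in untreated, 117.7 with high-fat, 206.3 with MTZ-after and 179.0 with MTZ-simultaneous. High-fat was the lowest of the 4, at 0.445 of untreated (0.410 to 0.483). MTZ-after was 1.75-fold above high-fat (1.60 to 1.93) and MTZ-simultaneous 1.52-fold (1.39 to 1.66), both short of the 2-fold call. Lymphocytes held 51.0, 55.9, 75.4 and 42.5 CPM, a high-fat to untreated ratio of 1.10 (0.820 to 1.46). Measured against lymphocytes, the endothelial-like high-fat to untreated ratio was 0.407 (0.304 to 0.544), and the MTZ-simultaneous to high-fat ratio was 2.002 (1.48 to 2.72). The ratio of MTZ-after to high-fat on that scale was 1.30 (0.927 to 1.82), an interval that includes 1.

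Thinned to 500 UMIs, 6.12% of endothelial-like nuclei had a Dkk2 UMI in untreated, 4.36% with high-fat, 6.66% with MTZ-after and 5.28% with MTZ-simultaneous. The corresponding T or NK-like shares were 1.958, 2.71, 1.97 and 0.796%. Before thinning, at median depths of 1808, 1060, 748 and 1563 UMIs, the endothelial-like shares were 12.9, 11.4, 11.5 and 13.7%. The T or NK-like ones were 4.89, 5.78, 5.48 and 3.98%, at medians of 1418, 895.5, 792 and 1164 UMIs.

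The endothelial-like class held 6 clusters in unequal shares. Cluster 11, whose 10 leading genes begin with Fam155a and include Nfasc, Sele and Ddah1, was 77.2% of the class in high-fat and 16.4 to 19.8% in the other libraries. Sele is E-selectin, an adhesion molecule of activated endothelium. In cluster 11 Dkk2 was at 562.0 CPM in untreated, 123.3 with high-fat, 370.1 with MTZ-after and 228.7 with MTZ-simultaneous. The high-fat level was 0.219 of untreated (0.1996 to 0.241), and MTZ-after and MTZ-simultaneous were 3.00-fold (2.68 to 3.36) and 1.85-fold (1.65 to 2.09) above high-fat. In cluster 25, led by Lrg1, Mgp and Plvap and holding 42.0% of the MTZ-simultaneous class, Dkk2 was at 351.9, 49.2, 145.2 and 225.3 CPM, with 6 counts in high-fat. In cluster 10 it was at 104.9 CPM in untreated and 107.7 in high-fat and showed no such low, with a ratio of 1.03 (0.658 to 1.63). Clusters 14, 16 and 17 had 3, 4 and 27 Dkk2 counts in high-fat and ratios of 0.398, 0.647 and 0.615, of which the interval lay below 1 in cluster 17 (0.402 to 0.902). High-fat was thus lower than untreated beyond counting error in clusters 11, 25 and 17, and not in clusters 10, 14 and 16. The summed CPM of 12 macrophage markers in endothelial-like nuclei was 405.9, 974.1, 671.0 and 513.7, highest in the library where Dkk2 was lowest; all 12 had counts in every library, and their part in the result was not tested.

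**Figure D2:**
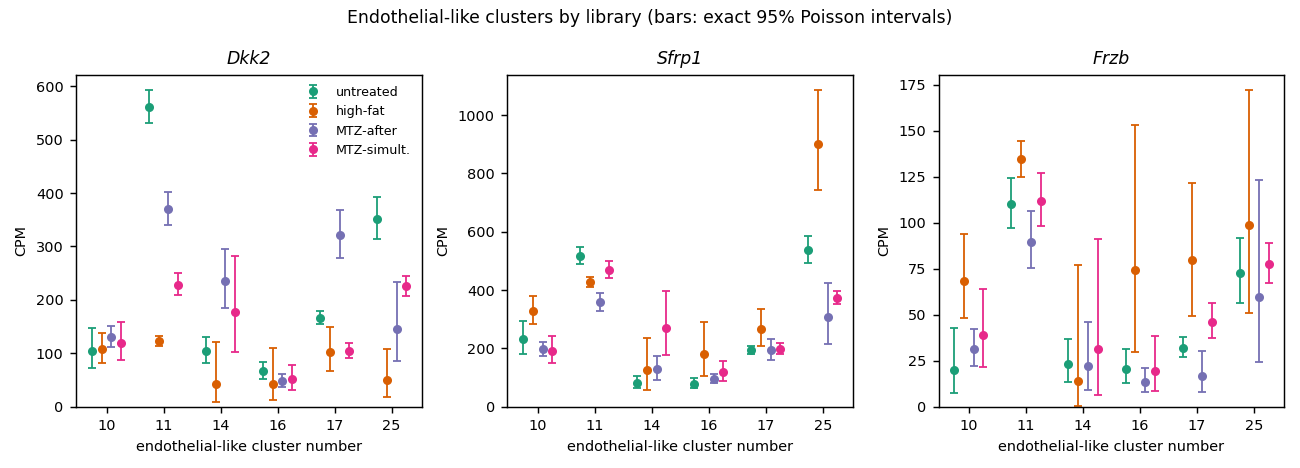
Points are CPM of Dkk2, Sfrp1 and Frzb in each endothelial-like cluster (cluster number on the x axis), coloured by library, with exact 95% Poisson intervals that cover counting error only. Dkk2 in cluster 11 is 562.0 CPM in untreated and 123.3 in high-fat, while Sfrp1 in the same nuclei is 517.2 and 426.3.

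Sfrp1 and Frzb in cluster 11 did not share that pattern. Sfrp1 there was at 517.2, 426.3, 358.4 and 470.3 CPM, a high-fat to untreated ratio of 0.824 (0.769 to 0.884), and Frzb was at 110.3, 134.4, 89.8 and 112.0 CPM, a ratio of 1.22 (1.06 to 1.41). In the class as a whole the corresponding ratios were 1.44 and 2.34. Other clusters differed from this: Frzb went from 19.7 to 68.2 CPM in cluster 10, from 20.7 to 74.4 in cluster 16 and from 32.0 to 79.7 in cluster 17, with 38, 7 and 21 counts in high-fat. Sfrp1 went from 537.4 to 902.8 CPM in cluster 25, above its level in cluster 11 in both libraries.

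Modulated-mesenchymal-like nuclei also had less Dkk2 in high-fat. The level was 178.4 CPM in untreated, 51.8 with high-fat, 100.1 with MTZ-after and 150.3 with MTZ-simultaneous. High-fat was 0.291 of untreated (0.231 to 0.365) and at 0.928 of its own lymphocyte level. MTZ-simultaneous was 2.90-fold above high-fat (2.24 to 3.74). In cluster 30 alone the high-fat to untreated ratio was 0.299 and the MTZ-simultaneous to high-fat ratio was 2.80. The 12 macrophage markers summed to 503.4, 1541, 813.0 and 522.6 CPM in this class, again highest in high-fat, with 11 or 12 of them having counts in each library; their part was not tested. Fibroblast-like nuclei held Dkk2 at 125.0, 99.2, 87.8 and 98.1 CPM with no ratio past 2-fold. Their 2 clusters went opposite ways from untreated to high-fat, from 54.2 to 124.0 CPM in cluster 21 and from 171.9 to 73.5 in cluster 24. In MTZ-after, 88 neuron-like nuclei held Dkk2 at 477.4 CPM (395.1 to 571.7) and Dkk3 at 174.0 (125.9 to 234.3), above every other class of that library; untreated and high-fat had no neuron-like nuclei.

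Dkk3, a divergent Dickkopf protein that is not a classical Lrp5 or Lrp6 blocker, lies on chromosome 7 from 112116017 to 112159057 on the minus strand. In modulated-mesenchymal-like nuclei it stood at 74.4 CPM in untreated, 44.2 with high-fat, 51.3 with MTZ-after and 91.0 with MTZ-simultaneous. MTZ-simultaneous was 2.06-fold above high-fat (1.505 to 2.79). Lymphocytes held 6.57, 8.15, 16.6 and 16.0 CPM, and the ratio measured against them was 1.05 (0.524 to 2.10). Pericyte-like and smooth-muscle-like nuclei came next, with means of 30.5 and 29.7 CPM over the libraries, which their ranges of 21.1 to 39.8 and 22.2 to 39.8 CPM do not separate.

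Wif1, which binds Wnt ligands through its WIF domain, lies on chromosome 10 from 121033960 to 121100650 on the plus strand. It was near the limit of detection, with 22, 26, 11 and 56 counts in the 4 libraries. Of the 56 counts in MTZ-simultaneous, 26 (46.4%) were in smooth-muscle-like nuclei, at 5.92 CPM (3.87 to 8.68). Smooth-muscle-like nuclei of the other libraries held 1 or 2 counts each. Modulated-mesenchymal-like nuclei had 7, 7, 1 and 5 counts, so their order among classes rests on few molecules.

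Rspo1 lies on chromosome 4 from 124986430 to 125009099 on the plus strand. In mesothelial-like nuclei it stood at 128.0 CPM in untreated, 34.6 with high-fat, 113.2 with MTZ-after and 122.4 with MTZ-simultaneous. The high-fat value rested on 3 counts from 76 nuclei (7.13 to 101.1 CPM), against 1233, 615 and 2767 nuclei in the others, which lay between 113.2 and 128.0 CPM. Mesothelial-like nuclei held 62.6% of all Rspo1 counts in untreated and 63.4% in MTZ-simultaneous. Over all kept nuclei Rspo1 was at 11.1, 2.43, 8.07 and 26.1 CPM, and the share of mesothelial-like nuclei was 5.94, 0.216, 2.37 and 15.5% in the same order. The library order of the total and of the mesothelial-like share was thus the same.

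Rspo1 in other classes stood beside these shares. Endothelial-like nuclei had 3.75, 1.37, 5.50 and 8.70 CPM, below lymphocytes (5.56, 1.75, 15.4 and 12.5 CPM) in every library. The summed CPM of 8 mesothelial marker genes in endothelial-like nuclei was 28.4, 4.26, 45.6 and 116.7, which ranks the libraries as Rspo1 does there; the part of this in the result was not tested.

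Rspo3 lies on chromosome 10 from 29452416 to 29535867 on the minus strand. It was highest in lymphatic-endothelial-like nuclei, at 60.1 CPM in untreated, 13.9 with high-fat, 87.7 with MTZ-after and 43.4 with MTZ-simultaneous. The high-fat value was 2 counts from 130 nuclei, and its ratio to untreated was 0.231 (0.0274 to 0.870). The endothelial-like class held 5.21, 2.74, 11.4 and 6.50 CPM.

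In fibroblast-like nuclei Rspo3 stood at 8.63 CPM in untreated, 5.03 with high-fat, 61.7 with MTZ-after and 11.01 with MTZ-simultaneous. MTZ-after was 12.3-fold above high-fat (5.77 to 31.2), with 118 counts against 7. Lymphocytes of MTZ-after held 14.1 CPM and those of high-fat 2.33, a ratio of 6.04 from 11 and 4 counts. Cluster 24, whose leading genes include C7, Abca8a and Hhip, reached 80.0 CPM in MTZ-after and 4.41 to 10.2 CPM elsewhere, and cluster 21 reached 26.2 CPM. MTZ-after was also the library with adrenal-cortex-like nuclei. In its fibroblast-like nuclei all 8 adrenal cortex markers had counts and summed to 135.9 CPM, against 2 of 8 markers and 4.32 to 10.0 CPM in each of the other libraries. The part of adjoining adrenal tissue in the Rspo3 result was not tested.

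**Figure D3:**
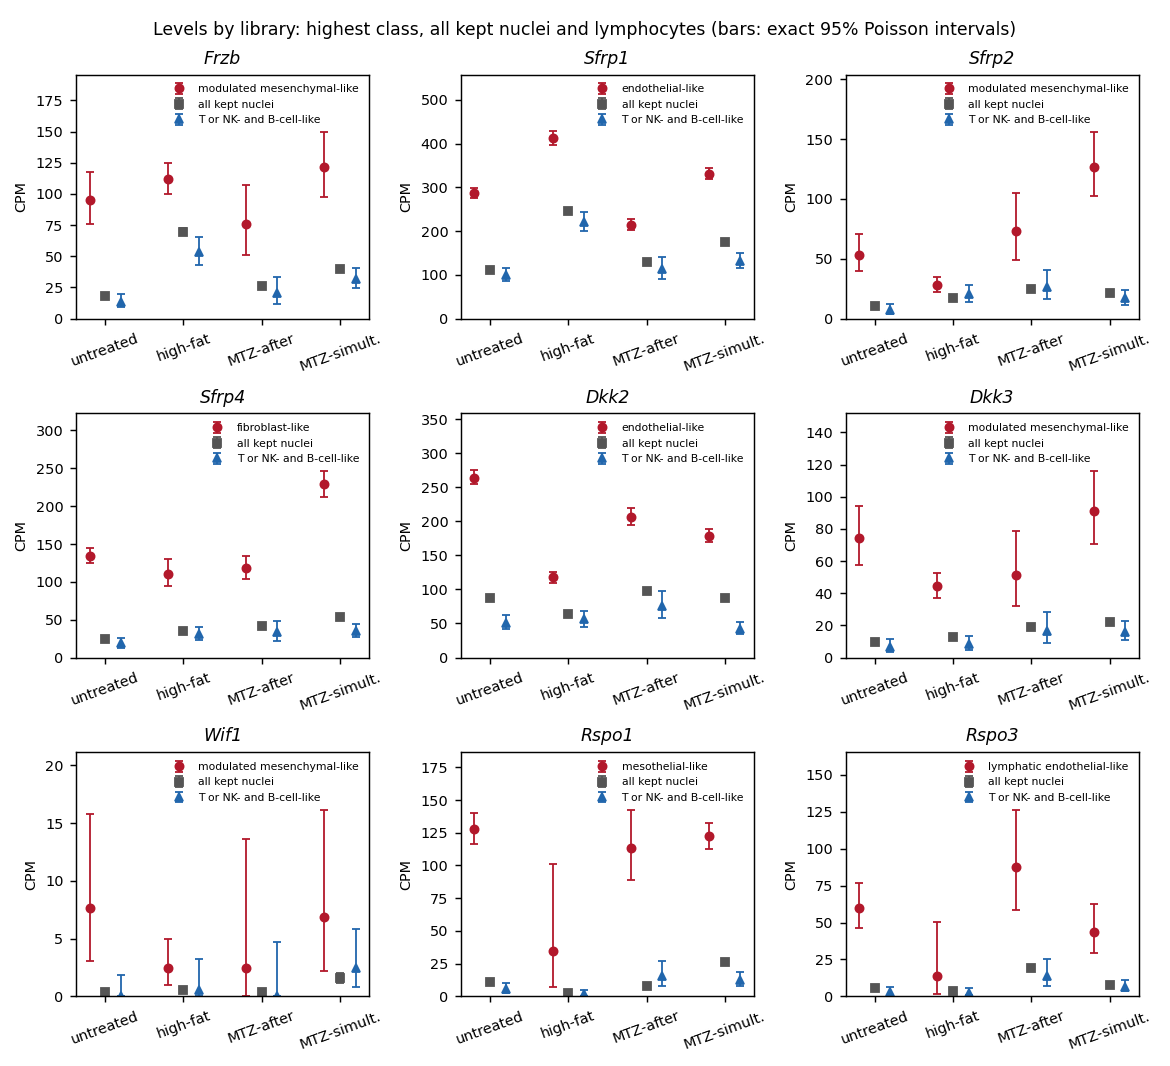
Each panel gives 1 member in CPM (y axis, from 0) in the 4 libraries: red circles are its highest class, grey squares all kept nuclei and blue triangles lymphocytes, with exact 95% Poisson intervals. Dkk2 in endothelial-like nuclei is lowest in high-fat (117.7 CPM) while lymphocytes range from 42.5 to 75.4 CPM and are highest with MTZ-after, whereas the Frzb and Sfrp1 lymphocyte levels peak in high-fat.

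The comparison of high-fat with untreated asks which genes differ on the diet in mice of this genotype. A call needed a 2-fold difference in CPM and 50 or more counts in the higher library. Over all kept nuclei 8 of the 9 members had enough counts. Frzb (3.83-fold) and Sfrp1 (2.22-fold) were called higher, where 6.5% of 16361 genes were, and Rspo1 (0.219) was called lower, where 7.33% were. Within endothelial-like nuclei Frzb, Sfrp2 (2.08-fold) and Sfrp4 (2.38-fold) were called higher and Dkk2 lower, against backgrounds of 5.61% and 2.42% of 11194 genes. Endothelial-like Sfrp2 and Sfrp4 were below the lymphocyte level in both libraries. Measured against lymphocytes, their high-fat to untreated ratios were 0.774 (0.385 to 1.55) for Sfrp2 and 1.44 (0.889 to 2.34) for Sfrp4, and both intervals include 1. Within modulated-mesenchymal-like nuclei Sfrp1 and Sfrp4 were called higher and Dkk2 lower, against 10.3% and 2.42% of 7029 genes. Measured against lymphocytes, the high-fat to untreated ratios were 1.10 (0.812 to 1.495) for Sfrp1 and 1.31 (0.774 to 2.225) for Sfrp4. Both intervals include 1, while that of Dkk2 at 0.265 (0.186 to 0.379) lies below it. Macrophage-like nuclei, which are not known as a main source of these proteins, had 5 members called higher against 13.5% of genes; Frzb, Sfrp1, Sfrp2 and Sfrp4 stood there at 0.763 to 1.07 of the high-fat lymphocyte level and Dkk3 at 1.28 times. In untreated, the 5 members stood at 0.451 to 0.953 of it. Measured against lymphocytes, the macrophage-like ratio of high-fat to untreated was 1.49 (1.21 to 1.85) for Sfrp1 and 1.958 (1.14 to 3.37) for Sfrp4, both above 1, while the intervals of Frzb, Sfrp2 and Dkk3 include 1. In the 8 classes compared, 13 pairs of member and class were called higher and 4 lower, where 6.92% and 5.04% of all pairs of gene and class were. Of the higher pairs, only macrophage-like Sfrp1 and Sfrp4 had an interval above 1 when measured against lymphocytes. Endothelial-like Frzb was below 1 on that scale, at 0.596 (0.382 to 0.928). Smooth-muscle-like Frzb (2.34-fold) and Sfrp1 (2.02-fold) were among the higher pairs, where 5.07% of genes in that class were. Against lymphocytes they stood at 0.596 (0.331 to 1.075) and 0.916 (0.696 to 1.21). Members with enough counts numbered 7 each in endothelial-like, fibroblast-like and macrophage-like nuclei, 5 in modulated-mesenchymal-like and 3 each in smooth-muscle-like and mesothelial-like nuclei. Lymphatic-endothelial-like nuclei had 1 and pericyte-like nuclei 0. The lower pairs included mesothelial-like Rspo1 and lymphatic-endothelial-like Rspo3, from 3 and 2 high-fat counts. In those classes 22.8% and 11.8% of genes were lower.

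Both MTZ comparisons use the same high-fat library as denominator, so they share its peculiarities and are given side by side. Over all kept nuclei, MTZ-after had Rspo1 (3.32-fold) and Rspo3 (5.13-fold) called higher and Frzb (0.377) called lower, against 13.7% and 2.56% of 16327 genes. MTZ-simultaneous had Rspo1 (10.7-fold), Rspo3 (2.05-fold) and Wif1 (2.78-fold) called higher, against 8.02% of 16112 genes, and none lower, against 2.41%. With a fold of 1.5 in place of 2, 1 member was lower. Over the 8 classes MTZ-after had 5 pairs higher and 6 lower, against 4.08% and 2.63% of all pairs of gene and class. Enough counts were present for 7 members in endothelial-like, 6 each in fibroblast-like and macrophage-like and 5 in smooth-muscle-like nuclei. Modulated-mesenchymal-like nuclei had 3, mesothelial-like 2, pericyte-like 1 and lymphatic-endothelial-like 0. Mesothelial-like Rspo1 and Dkk2 were higher, each from 3 high-fat counts, where 14.7% of genes in that class were. MTZ-simultaneous had 10 pairs higher and 3 lower, against 4.43% and 2.79%. There 8 members had enough counts in endothelial-like, 7 each in fibroblast-like and smooth-muscle-like, and 6 each in modulated-mesenchymal-like and macrophage-like nuclei. Mesothelial-like nuclei had 4, and pericyte-like and lymphatic-endothelial-like nuclei 0. Mesothelial-like Rspo1 and Sfrp4 were higher, from 3 and 1 high-fat counts, where 16.5% of genes in that class were.

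In modulated-mesenchymal-like nuclei MTZ-simultaneous had 3 members called higher (Sfrp2, Dkk2 and Dkk3) where 1.36% of 6165 genes were, and Sfrp1 called lower where 8.37% were. MTZ-after had none called higher there, where 0.578% of 5539 genes were, and Sfrp1 called lower where 6.9% were. Measured against lymphocytes, the Sfrp1 ratios to high-fat were 0.549 (0.388 to 0.778) in MTZ-simultaneous and 0.868 (0.570 to 1.32) in MTZ-after. The MTZ-after Sfrp2 and Dkk2 levels of 73.2 and 100.1 CPM were above high-fat, but rested on 30 and 41 counts, short of the 50 needed. The Dkk2 ratio of 1.93 (1.33 to 2.74) was also short of 2-fold. In endothelial-like nuclei MTZ-after had Rspo3 called higher (6.11% of genes) and Frzb lower (1.21%), and MTZ-simultaneous had Rspo1 and Rspo3 called higher (2.61%) and no member lower (2.21%). The endothelial-like levels of both R-spondins were at or below those of lymphocytes in these MTZ libraries. Relative to lymphocytes, the endothelial-like Frzb ratio of MTZ-after to high-fat was 0.883 (0.509 to 1.53), an interval that includes 1. In fibroblast-like nuclei MTZ-simultaneous had Sfrp4 and Rspo1 called higher (2.86% of 7768 genes), and MTZ-after had Rspo3 called higher (3.72% of 6579) and Frzb and Sfrp1 called lower (0.836%). The 8 mesothelial markers summed to 10.1 CPM in high-fat and 153.5 CPM in MTZ-simultaneous fibroblast-like nuclei, and their part in the Rspo1 call was not tested. Frzb and Sfrp1 in fibroblast-like nuclei of MTZ-after were at 0.894 and 0.960 of their lymphocyte levels.

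**Figure D4:**
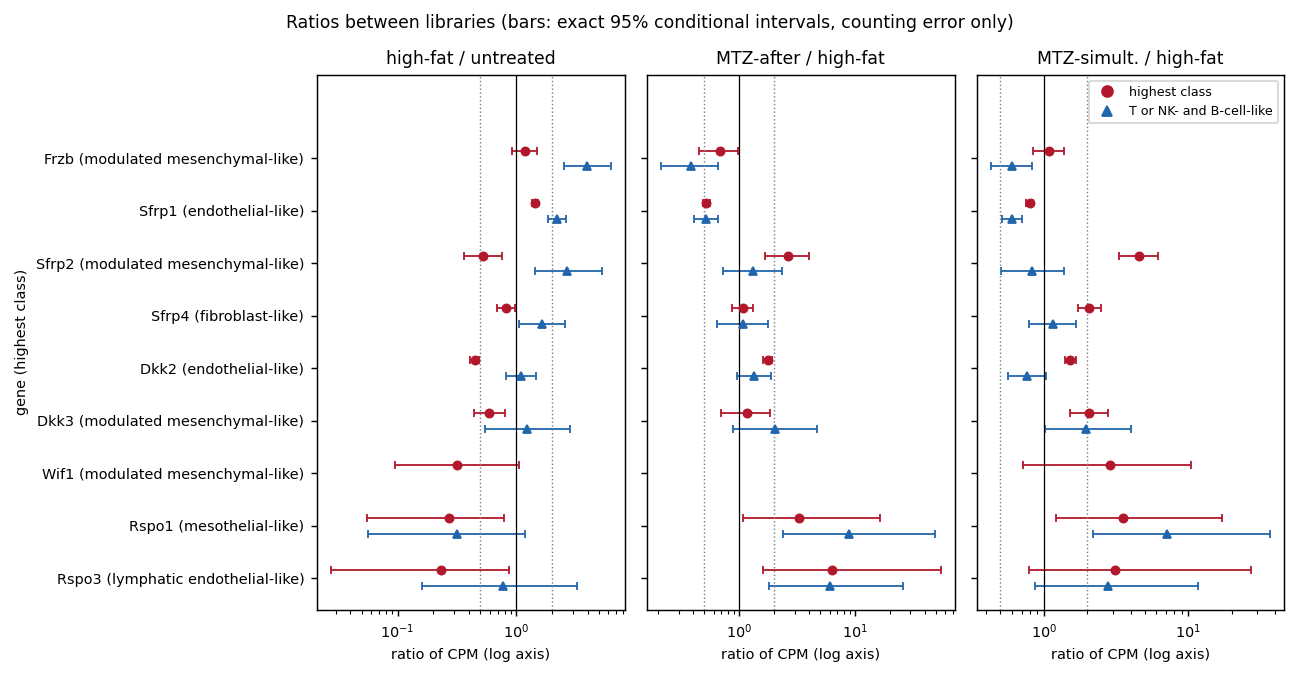
Red circles give the CPM ratio of each member between 2 libraries in its highest class and blue triangles the ratio in lymphocytes, on a log axis with exact 95% conditional intervals; dotted lines mark 0.5 and 2, and ratios from under 10 counts or with a 0 are left out. From untreated to high-fat, Dkk2 stands at 0.445 in endothelial-like nuclei and 1.10 in lymphocytes, while Frzb stands at 1.18 in modulated-mesenchymal-like nuclei and 3.93 in lymphocytes.

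The other genes of the pathway were read from lists by role, 88 genes in all. From untreated to high-fat, 4 of the 68 with enough counts were called higher over all kept nuclei and 5 lower, close to the 6.5% and 7.33% of all genes, and their median log2 ratio was -0.02 against 0.10 for all genes. The feedback target Axin2, a scaffold of the beta-catenin destruction complex, was lower (20.9 CPM in untreated, 5.00 in high-fat). Over the classes Axin2 was highest in adipocyte-like and brown-adipocyte-like nuclei, at means of 25.3 and 22.95 CPM, and the share of brown-adipocyte-like nuclei was 33.0% in untreated and 2.36% in high-fat; the part of this in the result was not tested. Also lower was Lgr6, a receptor for R-spondins (197.0 and 22.7 CPM), which over the classes was highest in smooth-muscle-like and brown-adipocyte-like nuclei, at means of 173.7 and 173.5 CPM. Lgr6 was also lower in high-fat within T or NK-like (128.7 and 24.7 CPM) and B-cell-like nuclei (130.3 and 21.5 CPM). The ligands Wnt5a and Wnt11 were lower and Wnt16 was higher. The collagen-associated Wnt modulator Cthrc1 (5.46 and 14.0 CPM) and the CCN-family genes Ccn4 and Ccn5 were higher. Over the classes these genes were highest in modulated-mesenchymal-like nuclei, which made up 0.939% of untreated and 6.05% of high-fat. Within that class Cthrc1 was at 21.9 and 20.05 CPM, Ccn4 at 32.8 and 20.05 and Ccn5 at 64.6 and 63.6. In macrophage-like nuclei Cthrc1 (3.59-fold) and Ccn5 (5.93-fold) were called higher in high-fat. The part of tissue makeup in these results was not tested.

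In endothelial-like nuclei, where Dkk2 was lower in high-fat, 2 of 45 other Wnt genes with enough counts were called, both higher, and none lower, where 5.61% and 2.42% of all genes were. Ccn5 went from 1.56 to 13.5 CPM, and Tcf7, a TCF factor gene, from 2.60 to 7.75. Lymphocyte means over the libraries were 11.5 CPM for Ccn5 and 48.2 CPM for Tcf7. Over the classes Tcf7 was highest in T or NK-like nuclei. Axin2, with 36 and 20 counts, did not reach the count minimum there. All 19 of 19 intracellular components stayed within 2-fold. Their median log2 ratio was 0.06, against 0.08 for all genes.

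From high-fat to MTZ-after, 11 of 69 other Wnt genes were called higher over all kept nuclei and 1 lower, where 13.7% and 2.56% of all genes were, a share near the background. From high-fat to MTZ-simultaneous it was 13 of 69 higher and 1 lower, where 8.02% and 2.41% of all genes were. Among the higher ones in both were Axin2 (5.00 CPM in high-fat, 14.4 in MTZ-after, 10.3 in MTZ-simultaneous), the feedback inhibitor Nkd1 (5.69, 18.4 and 21.2 CPM) and the ligand Wnt4 (2.07, 13.4 and 6.06 CPM). Adrenal-cortex-like nuclei held 58.1% of the Wnt4 counts, 29.4% of the Axin2 counts and 39.5% of the Nkd1 counts of MTZ-after. Lgr5, a receptor for R-spondins, went from 0.652 to 20.8 CPM in MTZ-after, where chromaffin-like nuclei of the adrenal medulla held 67.4% of its counts. Of the genes called higher in MTZ-simultaneous, Wnt4, Wnt5a, Wnt9a and Lgr5 were highest in mesothelial-like nuclei, among classes present in every library. Axin2, Nkd1, Wnt11, Lgr6, Ptk7 and Tnfrsf19 were highest in other classes. Mesothelial-like nuclei were 0.22% of high-fat and 15.5% of MTZ-simultaneous, and their part in the result was not tested. The median log2 ratio of the 69 genes was 0.15 in MTZ-after against 0.03 for all genes, and 0.26 in MTZ-simultaneous against 0.10.

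Within endothelial-like nuclei the called genes were few. MTZ-after had Lef1, Lgr6 and Wnt5a higher and Ccn5 lower, where 6.11% and 1.21% of all genes were. MTZ-simultaneous had Nkd1 higher (4.71 to 11.6 CPM) and Sost, another Lrp5 and Lrp6 blocker, lower (8.06 to 3.25 CPM). Of all genes, 2.61% and 2.21% were called in those directions. Endothelial-like Sost was 1.38 times the lymphocyte level in high-fat (0.697 to 3.05) and 0.929 times in MTZ-simultaneous (0.391 to 2.54). Both intervals include 1. Over the classes Lef1 was highest in T or NK-like nuclei, at a mean of 227.7 CPM. In modulated-mesenchymal-like nuclei of MTZ-simultaneous the R-spondin gene Rspo2 was higher (75.3 to 175.1 CPM). This class was also where Rspo2 was highest over all classes, at a mean of 104.5 CPM.

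The genes whose levels followed the members most closely were found by Pearson correlation of log2(CPM + 1) over 61 sums of a class in a library. These sums share libraries and free RNA, so the values are a description. Frzb was closest to Bgn (r = 0.82) and Mgp (0.79), both genes of extracellular matrix proteins. Sfrp1 was closest to Armcx4 (0.86), the BMP ligand Bmp6 (0.84) and the endothelial receptor Heg1 (0.83). Sfrp2 was closest to the collagen gene Col1a2 (0.74) and the proteoglycan gene Dcn (0.74), and Sfrp4 to Prg4 (0.78) and Vcan (0.77), which encode lubricin and versican. Dkk2 was closest to Nmnat2 (0.83), Dkk3 to Ccn3 (0.77), and Wif1, with 115 counts in all, to Gm49890 (0.66). Rspo1 was closest to the mesothelial genes Aldh1a2 (0.81) and Wt1 (0.80), and Rspo3 to Nr2f2 (0.73), a transcription factor of veins and lymphatic vessels.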

How the data were processed

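Nuclei of 4 mouse aortic libraries were analysed, 1 per group. The deposited values were whole-number UMI counts per gene and nucleus, made by the authors with Cell Ranger 7.0.1 per the file headers. STAR and the mm10 build are named in the submitters' processing notes. The handling of intronic reads is not given in the sources used here. Members, gene lists, markers and call rules were chosen with earlier results of these data known.

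Nuclei with at least 300 genes and at most 10% mitochondrial counts were kept. Nuclei above the score that marks the highest 8% of Scrublet scores were removed in every library. Log-scaled counts (10000 per nucleus), 2000 variable genes without Wnt genes, 30 principal components and 20 neighbours gave Leiden clusters at resolution 2 (scanpy 1.11.5). Clusters were named when at least 3 markers were at least 1.5-fold enriched and found in at least 5% of nuclei. The mean log2 fold of the list had also to reach 0.5. Clusters under 50 nuclei, or with more genes of another list among their 10 leading genes, stayed unnamed. So did shallow clusters without an own marker among those 10. Nuclei left unnamed made up 9.07, 18.5, 3.74 and 7.07%. In high-fat 6185 of the 6489 unnamed nuclei were in cluster 29, whose 10 leading genes include Frzb. Counts were summed per library and class. Intervals are exact Poisson or exact conditional at 95%; those for ratios against lymphocytes use a normal approximation on the log scale. A level of 0 counts was taken at 3 counts. Of the other Wnt genes, those named were called, at most 4 per list, comparison and class. The alternatives were edgeR 4.0.16 TMM factors, stricter filters, no doublet removal, thinning to 500 UMIs, equal weight per nucleus, other clusterings and other call rules. On simulated counts the call rule was tested before use.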

Additional observations from a re-analysis of the deposited data

How the results depend on the processing

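Of 513 values of single members under other settings, 427 stayed within the margin set for them (the counting interval of a ratio), 81 moved beyond it and 5 changed side of 1. The 5 were Dkk2 in endothelial-like nuclei, high-fat over untreated, within cluster 10 alone (1.03, a setting chosen after seeing the data, as were all within-cluster values and ratios against lymphocytes), Dkk2 in mesothelial-like nuclei, MTZ-after over high-fat, after thinning (0.906), Rspo3 in smooth-muscle-like nuclei, MTZ-after over high-fat, with another clustering seed (0.718), and Sfrp4 in mesothelial-like nuclei, MTZ-simultaneous over high-fat, at resolution 1 (0.962) and after thinning (0.659). The cause was not tested. By mean CPM over the libraries, all 9 members were highest in the same class under every setting except centring of the libraries, where 8 were.

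Counts of called members over all kept nuclei moved only under 2 settings. With TMM factors, or a fold of 1.5, 2 members were lower in MTZ-after. With a fold of 1.5, 2 members were lower in high-fat than in untreated, and 5 were higher and 1 lower in MTZ-simultaneous. Within classes, thinning left 8 pairs higher and 1 lower in high-fat, and 1 higher in each MTZ library; it removes counts, so fewer pairs reach 50. Without a count minimum there were 23 higher and 9 lower in high-fat, 14 and 12 in MTZ-after, and 18 and 7 in MTZ-simultaneous. A minimum of 20 counts gave 10 higher in MTZ-after. A fold of 1.5 gave 8 lower in high-fat, 9 higher in MTZ-after and 8 lower in MTZ-simultaneous. Equal weight per nucleus gave 8 higher in high-fat, and resolution 1 gave 5 lower in MTZ-simultaneous. For the other Wnt genes over all kept nuclei, a fold of 1.5 gave 14 higher and 9 lower in high-fat, 21 and 3 in MTZ-after, and 20 and 3 in MTZ-simultaneous. No count minimum gave 9 lower in high-fat, 19 higher and 2 lower in MTZ-after, and 23 higher and 2 lower in MTZ-simultaneous, where thinning and equal weights also gave 2 lower.

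No paired analysis was possible because each group has 1 library. Depth limited Wif1 everywhere, and Rspo1 and Rspo3 in the classes with few high-fat nuclei.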
